A study of Phaseolus vulgaris
Paraburkholderia phymatum STM815 with 4 samples.

Results

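The 100 most abundant transcripts of common bean (*P. vulgaris*) in nitrogen-fixing root nodules were followed in nodules occupied by the *nifA* insertional mutant of *P. phymatum* STM815 and in nodules occupied by the wild-type strain. The nodules came from plants grown on nitrogen-free medium and were harvested at 21 dpi (days post infection), and plant and bacterial RNA was sequenced in the same libraries, with 2 *nifA* and 2 wild-type libraries from independent biological replicates. All plants were of the cultivar Negro Jamapa, and the mutant carries an insertion in *nifA*, not a deletion. Of 32574 bean features (1 coding transcript each, named by an identifier that begins with ESW), 17987 had at least 90% of their reads counted as unique. This limit also left out abundant features that share a span with others. ESW22730, ESW22731 and ESW22732, all at chr5:39961749-39962424, had 0% unique reads and 19714 to 19836 TPM in wild-type replicate 1. Features were then left out where both *nifA* libraries held at most 3 reads, or where all libraries of one group lay at least 4-fold above all libraries of the other. The 13957 features that passed were ranked by their mean TPM (reads divided by feature length and scaled to a sum of 1000000 per library) in the wild-type libraries, and the first 100 are described here. The 100 were thus selected on their wild-type TPM and on the *nifA* to wild-type contrast in normalized reads, so the values below are descriptions and no p-value is given for these transcripts.

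In a legume nodule, bacteria enclosed in plant cells reduce atmospheric nitrogen to ammonia with nitrogenase, and the plant feeds them dicarboxylic acids in return. NifA is the bacterial activator that switches on the nitrogenase genes, so nodules formed by a *nifA* mutant do not fix nitrogen. In fixing nodules of legumes the plant is known to make large amounts of leghemoglobin, which carries oxygen at a low free concentration, and, in bean and its relatives, of the enzymes that turn fixed nitrogen into ureides for export.

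None of the 100 transcripts could be given such a name. Of the study's table of bean transcripts, 1998 were read. These pair 15 of the 100 with a locus tag and describe all 15 as hypothetical proteins. All 15 lie on chromosomes 10 and 11, and none of the 100 on another chromosome was paired. A missing name is thus a limit of what was read and says nothing about the transcript. A reference table of 34165 bean genes matched 0 feature names. Of 21 gene lists by product name (leghemoglobins, uricase, nodulins, sucrose synthase and others), 10 held at least 1 of the 1998 transcripts read. These lists had 15 entries in all, which are not the 15 above. None of the 100 was placed in a list by its description, since all that were paired read hypothetical protein. The study's own functional lists are taken up further below. Leghemoglobin, uricase, nodulin and vascular markers of the labelled tissue were found for 0 of the 1998 transcripts read, so the tissue label was not checked by its markers. The transcripts are therefore described by identifier, position, size and level. Coordinates are those of the deposited files, whose genome build name is not given in the sources used here.

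Uniquely mapped reads on bean features numbered 14169013 and 10640013 in *nifA* replicates 1 and 2, and 8526065 and 14004263 in wild-type replicates 1 and 2. The *nifA* gene itself held 2562 and 2491 of 1227068 and 1452624 bacterial reads in the *nifA* libraries. In the wild-type libraries it held 4036 and 3301 of 5235029 and 6593465. Its share of bacterial reads was thus higher in the *nifA* libraries. Since an insertion leaves the rest of the gene readable, this does not check the labels. Bacterial reads were 7.97% and 12.01% of the uniquely mapped gene reads in the *nifA* libraries, against 38.0% and 32.0% in the wild-type libraries. The names of the *nifA* and the wild-type libraries carry different years, so batch and strain cannot be told apart. In such whole-nodule RNA, fewer cells of a type and less RNA per cell cannot be told apart either.

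TPM was strongly shaped by a few features. Features above 10000 TPM took 92.4% and 88.8% of all bean TPM in the *nifA* libraries, against 47.8% and 73.5% in the wild-type libraries. All other features share what remains, and the median feature with at least 100 reads had a log2 ratio of −2.03 (*nifA* over wild-type nodules) in TPM but of −0.10 in normalized reads. Normalized reads are uniquely mapped reads divided by a median-of-ratios size factor, which was 0.723 and 0.916 in the *nifA* libraries and 1.15 and 1.42 in the wild-type libraries. Here TPM is used to set transcripts beside each other within a library, and normalized reads to set libraries beside each other for 1 transcript. The length used for TPM was the whole span from start to end for all 32574 features, introns included, so a transcript with introns has a lower TPM than its spliced length would give.

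Together, the 100 transcripts held 41.5% ± 1.47 of all bean TPM in *nifA* nodules and 34.2% ± 4.43 in wild-type nodules (SD, n = 2 each). Most of this came from the first 6, with 39.5% and 37.1% in the *nifA* libraries, against 16.6% and 30.7% in the wild-type libraries. The other 94 held 3.28% ± 0.232 in *nifA* nodules and 10.5% ± 5.57 in wild-type nodules (SD, n = 2 each). The share of the 94 was 14.5% in wild-type replicate 1 and 6.60% in wild-type replicate 2, so the wild-type libraries disagreed on it. The mean wild-type TPM of rank 6 was 1.68 times that of rank 7, and that of rank 7 was 2.09 times that of rank 8. The first 6 were set apart after the values were seen, and the level alone does not mark them off.

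**Figure D1:**
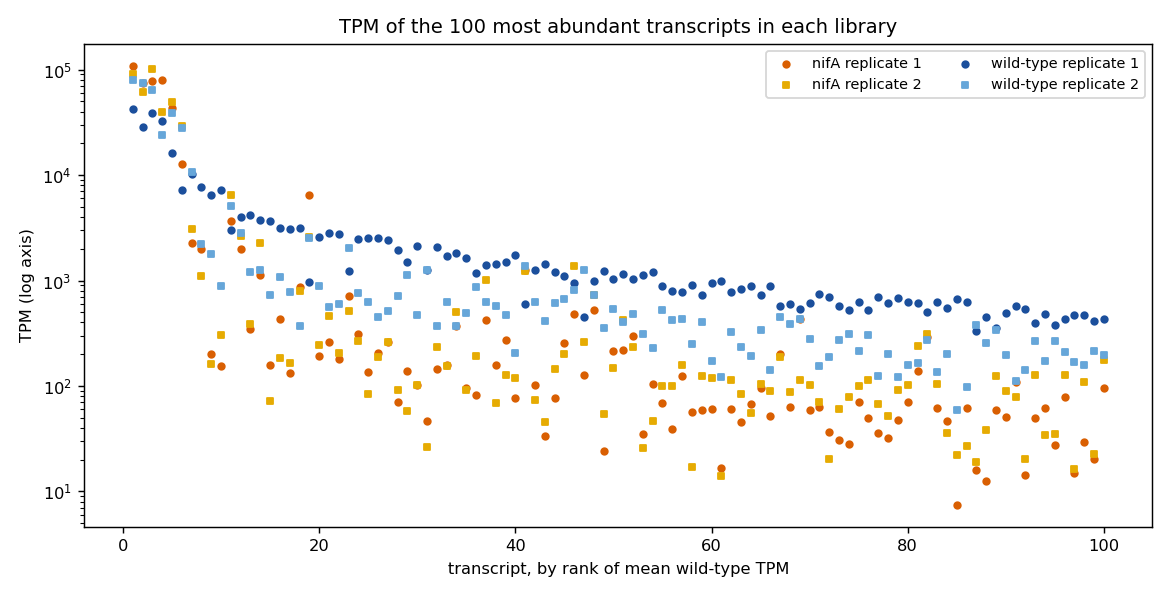
TPM (log axis) of each of the 100 transcripts, ordered by mean wild-type TPM, in the 2 *nifA* libraries (orange and yellow) and the 2 wild-type libraries (blue). The first 6 have 7228 TPM or more in all 4 libraries, and from rank 7 on most *nifA* points lie below both wild-type points, with wild-type replicate 1 highest.

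The 6 most abundant transcripts were ESW26089 (chr3:17869997-17870308), ESW04734 (chr11:21201549-21201749), ESW05164 (chr11:41495262-41495414), ESW31035 (chr2:36374175-36375135), ESW19768 (chr6:26717283-26717531) and ESW31036 (chr2:36375452-36375652). They were short, with a median length of 225 bases and a range that ran from 153 bases (ESW05164) to 961 bases (ESW31035). All 6 had more normalized reads in both *nifA* libraries than in either wild-type library, with 3.03 to 8.88 times as many in the group means. In TPM, 2 of the 6 (ESW04734 and ESW31036) overlapped between the groups.

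ESW26089 had 108301 and 90042 TPM in the *nifA* libraries, against 42356 and 78801 TPM in the wild-type libraries. In normalized reads it had 2062160 and 918790 in the *nifA* libraries, against 103401 and 451969 in the wild-type libraries. The groups did not overlap on either scale, and the nearest libraries were 2.03-fold apart in normalized reads.

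ESW04734 had 74238 and 60686 TPM in the *nifA* libraries, against 28244 and 74429 TPM in the wild-type libraries, so the groups overlapped in TPM. Its normalized reads were 912655 and 399998 in the *nifA* libraries, against 44552 and 275509 in the wild-type libraries. Here both *nifA* libraries were above both wild-type libraries, by 1.45-fold at the nearest. ESW05164 had nearly the same mean wild-type TPM as ESW04734, with 51269 ± 17135 and 51336 ± 32657 (SD, n = 2), so the order of ranks 2 and 3 lies well within their spread.

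ESW05164 had 77193 and 101959 TPM in the *nifA* libraries, against 39153 and 63385 TPM in the wild-type libraries. Its normalized reads were 714165 and 503909 in the *nifA* libraries, against 46766 and 177411 in the wild-type libraries. Both scales put it higher in the *nifA* libraries without overlap.

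ESW31035 gave 79371 and 39332 TPM in the *nifA* libraries, against 32369 and 23793 TPM in the wild-type libraries. It had 4665000 and 1239410 normalized reads in the *nifA* libraries, against 244106 and 420983 in the wild-type libraries. The groups were 2.94-fold apart at the nearest, the widest gap among the 6, although the *nifA* libraries differed from each other by 3.76-fold. It was also the only one of the 6 with more TPM in wild-type replicate 1 than in wild-type replicate 2.

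ESW19768 had 42939 and 49673 TPM in the *nifA* libraries, against 16183 and 38805 TPM in the wild-type libraries. Its normalized reads were 652725 and 404343 in the *nifA* libraries, against 31565 and 177636 in the wild-type libraries. The last of the 6, ESW31036, had 12609 and 28929 TPM in the *nifA* libraries, against 7228 and 27735 TPM in the wild-type libraries, and these overlapped. In normalized reads it had 154694 and 189981 in the *nifA* libraries, against 11371 and 102445 in the wild-type libraries, which did not overlap.

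Error was large for all 6. The log2 fold changes (*nifA* over wild-type nodules, edgeR) ran from 1.60 ± 1.13 for ESW31036 to 3.11 ± 1.75 for ESW31035 (standard error of the fit, 2 libraries per group). Each of the 6 had fewer normalized reads in wild-type replicate 1 than in wild-type replicate 2, at a median ratio of 0.203 and down to 0.111 for ESW31036. Without wild-type replicate 2 the log2 fold changes of the 6 ran from 3.63 to 4.11, and without wild-type replicate 1 from 0.77 to 2.81. Reads on features were 42.3% and 37.6% of the reads used to scale RPKM in the *nifA* libraries and 58.9% and 44.8% in the wild-type libraries. The part of either difference in these values was not tested.

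The median level of the 94 transcripts below rank 6 was 95.1 and 114 TPM in the *nifA* libraries, against 952 and 396 TPM in the wild-type libraries. In normalized reads the *nifA* libraries lay wholly below the wild-type ones for 45 of the 94 and wholly above for 15, and in 34 the groups overlapped. With the first 6, this made 45 of 100 below and 21 of 100 above, where among all 15507 features tested the shares were 32.5% and 19.2%. The 4-fold limit on separation shaped these counts, so no more is read from them. The 45 below had 1.26 to 8.96 times as many normalized reads in wild-type as in *nifA* nodules (group means, median 2.51), and 32 of them at least 2 times as many.

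**Figure D2:**
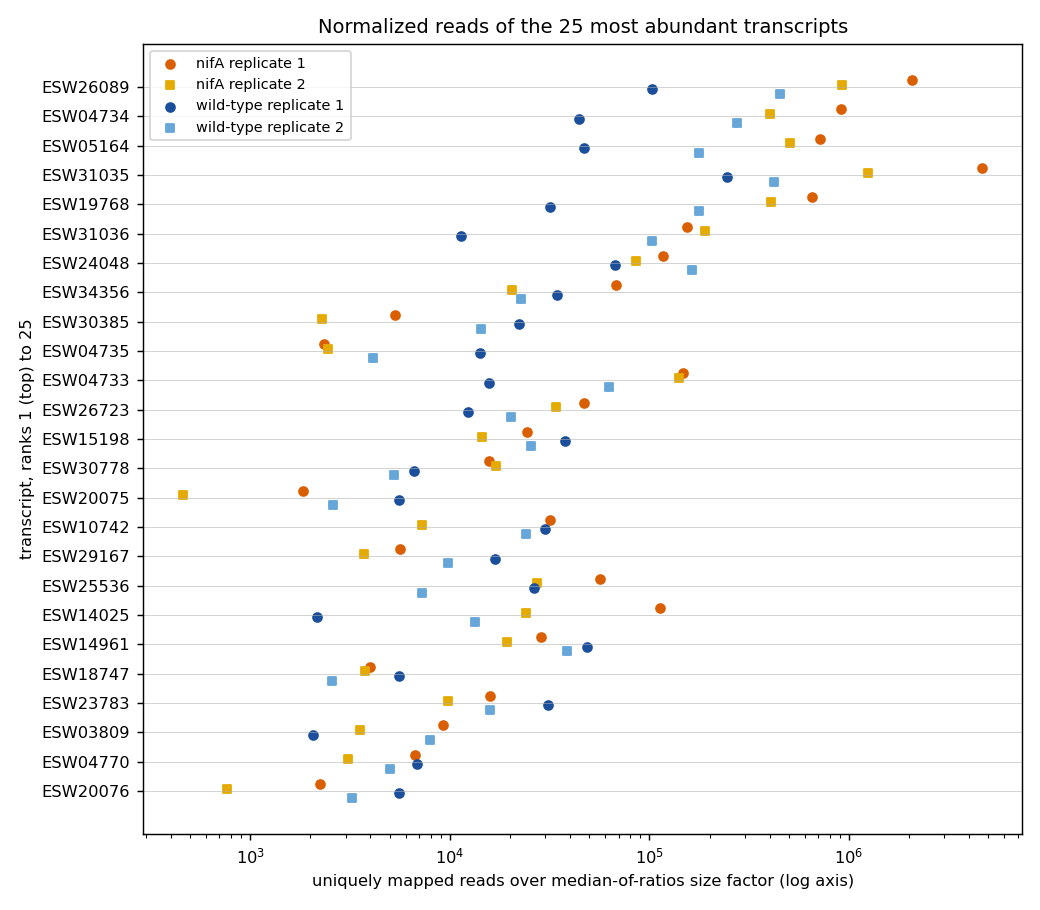
Normalized reads (uniquely mapped reads over the median-of-ratios size factor, log axis) of the 25 most abundant transcripts, rank 1 at the top, in the 2 *nifA* libraries (orange and yellow) and the 2 wild-type libraries (blue). Both *nifA* points lie right of both wild-type points for the first 6, and from rank 7 to 25 for 5 transcripts, left of them for 8, with 6 mixed.

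For 6 transcripts of ranks 7 to 25 the groups overlapped in normalized reads, in several of them with replicates far apart, so the overlap does not show a like level. ESW24048 (chr4:28331195-28332034), at rank 7, had 2265 and 3111 TPM in the *nifA* libraries, against 10201 and 10620 TPM in the wild-type libraries. Its normalized reads were 116366 and 85706 in the *nifA* libraries, against 67245 and 164291 in the wild-type libraries, and the *nifA* values lay between the wild-type ones. ESW34356 (chr1:39762324-39762884) at rank 8 had 1984 and 1112 TPM in the *nifA* libraries, against 7779 and 2202 TPM in the wild-type libraries. In normalized reads it had 68078 and 20456 in the *nifA* libraries, against 34250 and 22751 in the wild-type libraries. For both transcripts TPM separated the groups and normalized reads did not, and the log2 fold change of ESW34356 was 0.60 ± 0.74 and −0.44 without *nifA* replicate 1.

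The other 4 were ESW10742, ESW18747, ESW03809 and ESW04770. ESW10742 had 31747 and 7270 normalized reads in the *nifA* libraries, against 29835 and 24122 in the wild-type libraries. ESW18747 had 3958 and 3743 normalized reads in the *nifA* libraries, against 5550 and 2566 in the wild-type libraries. The *nifA* libraries thus agreed closely for ESW18747 and differed 4.37-fold for ESW10742. ESW03809 had 9257 and 3558 normalized reads in the *nifA* libraries, against 2052 and 7986 in the wild-type libraries, and ESW04770 had 6701 and 3084, against 6869 and 4999.

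Of ranks 7 to 25, 8 transcripts were lower in both *nifA* libraries. ESW30385 (chr2:28872341-28872775), at rank 9, had 200 and 160 TPM in the *nifA* libraries, against 6498 and 1785 TPM in the wild-type libraries. Its normalized reads were 5317 and 2284 in the *nifA* libraries, against 22181 and 14296 in the wild-type libraries. The log2 fold change of −2.29 ± 0.60 was the lowest among the first 25. ESW29167, at rank 17, had 5606 and 3712 normalized reads in the *nifA* libraries, against 16754 and 9797 in the wild-type libraries.

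For 3 others of these 8 the groups were separated by less than the libraries of 1 group differed. ESW15198 had 24377 and 14484 normalized reads in the *nifA* libraries, against 37805 and 25516 in the wild-type libraries. ESW23783 had 15864 and 9728 in the *nifA* libraries, against 31119 and 15915 in the wild-type libraries, with the nearest libraries at a ratio of 1.003. ESW14961 had 28500 and 19275 in the *nifA* libraries, against 48472 and 38769 in the wild-type libraries. The other 3 of the 8 (ESW04735, ESW20075 and ESW20076) have another of the 100 as neighbour and follow with it. Their groups too were separated by less (1.67, 1.41 and 1.44-fold) than the libraries of 1 group differed (3.46, 3.99 and 2.91-fold).

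Higher in both *nifA* libraries were 5 transcripts of ranks 7 to 25. ESW14025 (chr8:56131060-56131344), at rank 19, had 6461 and 2580 TPM in the *nifA* libraries, against 961 and 2546 TPM in the wild-type libraries. Its normalized reads were 112612 and 24112 in the *nifA* libraries, against 2150 and 13361 in the wild-type libraries. The log2 fold change was 3.10 ± 1.14, and the libraries of each group lay far apart, 4.67-fold in the *nifA* group and with a ratio of 0.161 between wild-type replicates 1 and 2. The log2 fold change of ESW14025 was 1.67 without *nifA* replicate 1 and 5.02 without wild-type replicate 2. ESW14025 was also the only one of the 100 that overlaps another feature, on the opposite strand, and reads of the overlapping pair cannot be told apart unless the counting used strand, which is not stated.

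ESW30778 (chr2:33415884-33416111) differed in the same direction with close replicates. It had 15687 and 16963 normalized reads in the *nifA* libraries, against 6638 and 5262 in the wild-type libraries. In TPM its *nifA* libraries had 1125 and 2269, against 3710 and 1253 in the wild-type libraries, so the groups overlapped on that scale. ESW26723 had 46975 and 33919 normalized reads in the *nifA* libraries, against 12290 and 20158 in the wild-type libraries. In TPM the direction of ESW26723 was opposite without overlap, with 1980 and 2666 in the *nifA* libraries, against 4037 and 2824 in the wild-type libraries. ESW25536 had 56722 and 27472 normalized reads in the *nifA* libraries, against 26355 and 7265 in the wild-type libraries, and its groups were only 1.04-fold apart.

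From rank 26 to 100, 37 of 75 transcripts lay wholly lower in the *nifA* libraries in normalized reads, 10 lay wholly higher and 28 overlapped. ESW11612 (chr8:3886098-3887624), at rank 31, had the lowest log2 fold change of the 100, −3.20 ± 0.78. It had 46.4 and 26.6 TPM in the *nifA* libraries, against 1263 and 1268 TPM in the wild-type libraries. In normalized reads the *nifA* libraries had 4337 and 1332, against 15132 and 35655 in the wild-type libraries, so the close wild-type values in TPM were 2.36-fold apart on the other scale.

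ESW23427, at rank 61, had 599 and 269 normalized reads in the *nifA* libraries, against 4560 and 1334 in the wild-type libraries. ESW08487, at rank 87, had 366 and 234 normalized reads in the *nifA* libraries, against 991 and 2656 in the wild-type libraries. Their log2 fold changes of −2.80 ± 0.70 and −2.62 ± 0.56 were the next lowest, and were −1.62 for ESW23427 without wild-type replicate 1 and −1.68 for ESW08487 without wild-type replicate 2. ESW24574, at rank 85, had 1313 and 2069 normalized reads in the *nifA* libraries, against 15125 and 3106 in the wild-type libraries. Wild-type replicate 1 had 4.87 times the normalized reads of wild-type replicate 2, and the log2 fold change of −2.44 ± 0.79 was −0.86 without it.

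The transcripts nearest to the 4-fold limit show where the choice fell. ESW17790 was kept with 1291 and 942 normalized reads in the *nifA* libraries, against 7057 and 4843 in the wild-type libraries, and its nearest libraries were 3.75-fold apart. ESW07904 was kept at 3.64-fold, with 2578 and 3105 in the *nifA* libraries, against 16668 and 11286 in the wild-type libraries. ESW11612 was kept at 3.49-fold. Just outside were ESW17922 at 4.01-fold and ESW35812 at 4.13-fold, both lower in the *nifA* libraries, and ESW29250 at 4.11-fold, which was higher there. The limits mattered for the list, since the last of the 100 stood at rank 162 of all features by wild-type TPM. Of the 62 features passed over, 38 had groups separated by at least 4-fold (35 lower and 3 higher in *nifA* nodules), 21 had under 90% unique reads and 3 had at most 3 reads in both *nifA* libraries.

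At the end of the ranking, ESW06454 (rank 97, chr10:7746616-7747532) had 14.9 and 16.3 TPM in the *nifA* libraries, against 472 and 168 TPM in the wild-type libraries. ESW04768 (rank 98) had 29.3 and 109 TPM in the *nifA* libraries, against 474 and 159 TPM in the wild-type libraries. ESW19644 (rank 99) had 20.3 and 22.6 TPM in the *nifA* libraries, against 411 and 215 TPM in the wild-type libraries. Of these only ESW04768 overlapped in normalized reads, with 404 and 806 in the *nifA* libraries, against 836 and 659 in the wild-type libraries. ESW30288 (rank 100) had 95.9 and 177 TPM in the *nifA* libraries, against 430 and 195 TPM in the wild-type libraries, yet 9958 and 9827 normalized reads in the *nifA* libraries, against 5723 and 6090 in the wild-type libraries. Its direction was thus opposite on the 2 scales. The 4 features next in rank (ESW13978, ESW34508, ESW16364 and ESW15254) had 303 to 310 mean wild-type TPM, against 312 for ESW30288, so nothing in the level marks the 100th place.

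The direction of a transcript depended on the scale in 20 of the 100, all lower in mean TPM and higher in mean normalized reads in *nifA* nodules. On both scales 70 were lower and 10 were higher in *nifA* nodules. In TPM, the *nifA* libraries lay below the wild-type ones without overlap in 81 of 100 and above them in 5, where over all features tested the shares were 76.0% and 1.33%. All 100 were among the 1000 features highest in mean *nifA* TPM, 95 among the first 500 and 54 among the first 100. The choice had already left out features nearly absent from *nifA* nodules and those separated at least 4-fold. A high *nifA* rank was thus partly set by the choice and does not show that levels were kept. At or above 1000 mean TPM there were 13 of the 100 in *nifA* nodules and 38 in wild-type nodules. The 100 were ranked on wild-type TPM, and the median feature with at least 100 reads had a log2 TPM ratio of −2.03. These counts therefore do not measure a change of the 100. The lowest count of unique reads for any of the 100 was 214 in a *nifA* library and 874 in a wild-type library.

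In the edgeR fit over all 15507 features, 17 of the 100 were called lower in *nifA* nodules and 3 higher, at a log2 fold change of 1 or more in size and an unadjusted p of 0.02 or less, where 6.6% and 2.5% of all features were. At a Benjamini-Hochberg adjusted p under 0.05 none of the 100 was called by edgeR (0 lower and 0 higher, where 1.38% and 0.174% of all features were), 34 had an unadjusted p under 0.05, where 15.4% of all features did, and DESeq2 called 32, where it called 7.89% of all features. The count of 20, beside 9.09% of all features, was 13 beside 24.7% without *nifA* replicate 2, 36 beside 7.63% without wild-type replicate 2 and 45 beside 10.2% with DESeq2 at the same limits. At these limits the 100 thus lay below the share over all features in 1 of these fits and above it in the others. At an adjusted p under 0.05 they lay below it in edgeR and above it in DESeq2. The median log2 fold change (*nifA* over wild-type nodules) was −0.53 over the 100 (range −3.20 to 3.11), beside −0.17 over all features tested. It was 2.36 over the first 6 and −0.65 over the other 94. Of the fits with 1 library left out, only that without *nifA* replicate 2 put the 100 above all features, at −0.43 against −0.61. Since the choice removed the widest separations, these figures describe the list only.

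**Figure D3:**
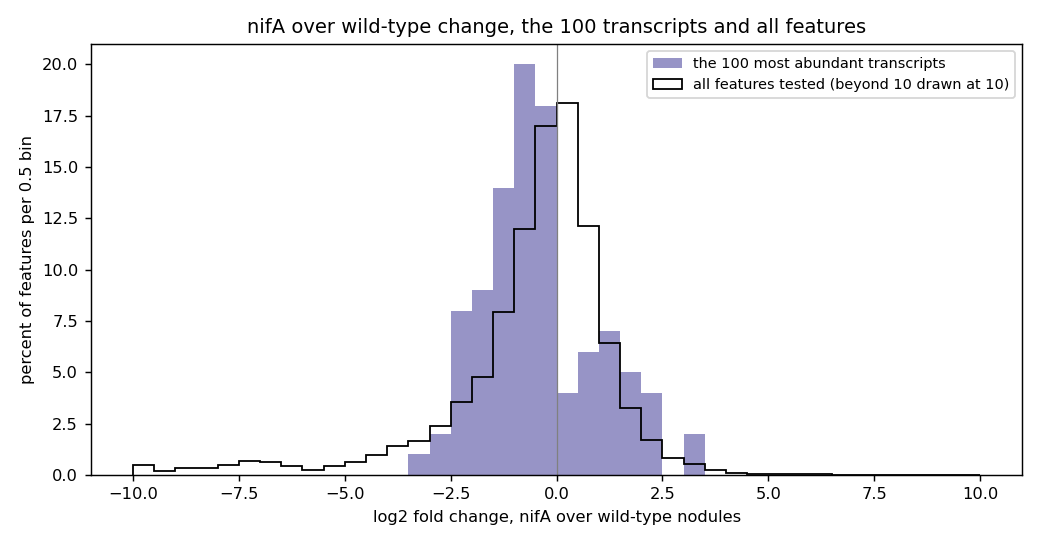
Distribution of log2 fold changes (*nifA* over wild-type nodules, edgeR) of the 100 transcripts (filled) and of all 15507 features tested (outline), as percent of each set per 0.5 bin. The 100 have a median of −0.53 against −0.17 for all features, and lie between −3.20 and 3.11, with wide separations left out by the choice.

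The wild-type libraries that fixed the ranking differed from each other. In TPM, 87 of the 100 were higher in wild-type replicate 1 than in wild-type replicate 2, with a median ratio of 2.75, and over all features with at least 100 reads the median ratio was 2.30. In normalized reads 55 of the 100 were higher in replicate 1, with a median ratio of 1.17, and over all such features it was 0.982. Still, 33 of the 100 differed more than 2-fold between the wild-type libraries in normalized reads, where 18.9% of all features with at least 100 reads did. Among the *nifA* libraries 32 of the 100 differed more than 2-fold and 15 more than 3-fold.

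The widest differences between wild-type libraries were those of ESW31036, ESW14025 and ESW25812 (rank 47, chr3:9695042-9695269). ESW25812 had 1688 and 1888 normalized reads in the *nifA* libraries, against 804 and 5315 in the wild-type libraries. Close *nifA* replicates thus lay inside the gap between the wild-type ones. The *nifA* libraries were furthest apart for ESW34954 (rank 69, chr1:46064958-46065641), with 17762 and 2526 normalized reads in the *nifA* libraries, against 2819 and 5310 in the wild-type libraries. ESW15673 (rank 58) followed, with 7257 and 1175 in the *nifA* libraries, against 14833 and 9718 in the wild-type libraries. The ratios between these *nifA* libraries were 7.03-fold and 6.18-fold.

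**Figure D4:**
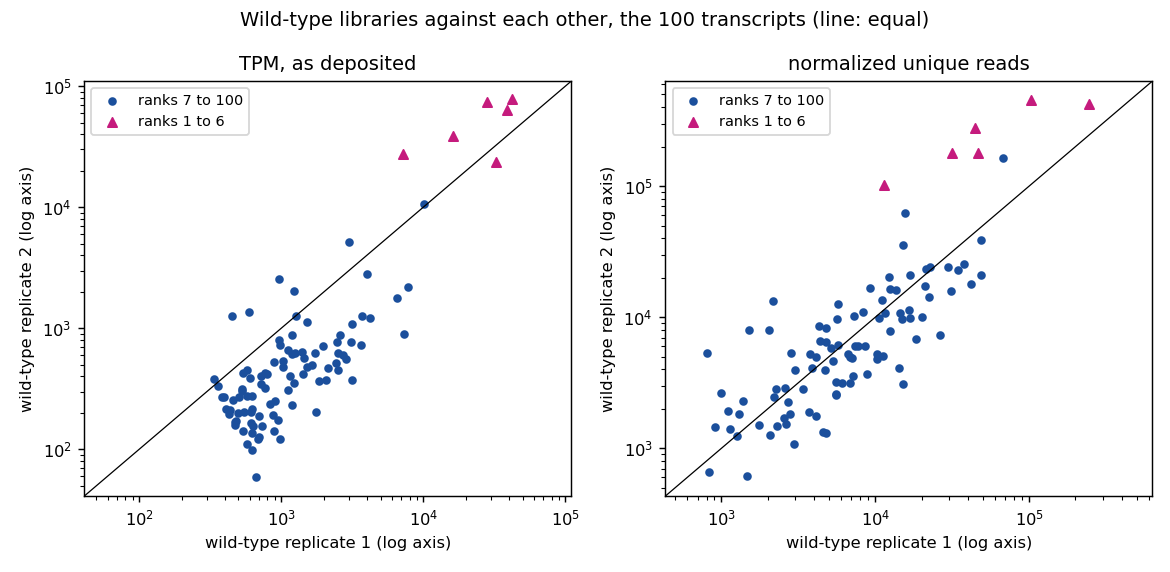
Wild-type replicate 2 against wild-type replicate 1 (log axes) for the 100 transcripts, in TPM (left) and in normalized reads (right), with the first 6 as triangles and a line of equal values. In TPM 87 of 100 lie below the line, in normalized reads 55 do, and all 6 triangles lie above it in normalized reads.

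Several of the 100 were neighbours on their chromosome. Within 100 kb of each other lay 12 pairs made of 22 transcripts, and 6 of the pairs had no other feature between them. Such neighbours did not always share a direction. On chromosome 2, ESW31035 and ESW31036 lie 316 bases apart on the forward strand, and both were higher in the *nifA* libraries.

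On chromosome 6, ESW20075 and ESW20076 lie 2492 bases apart on the reverse strand. ESW20075 (chr6:28913542-28913751) had 1836 and 460 normalized reads in the *nifA* libraries, against 5530 and 2591 in the wild-type libraries. ESW20076 (chr6:28916244-28916540) had 2229 and 765 normalized reads in the *nifA* libraries, against 5540 and 3215 in the wild-type libraries. The values of the pair ran close together in all 4 libraries. With 91.5% and 93.7% of their reads counted as unique, they had a lower unique share than most of the 100, of which 73 had only unique reads and 90 at least 99%.

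On chromosome 10, ESW07773 and ESW07774 lie 2334 bases apart on the reverse strand and were both lower in the *nifA* libraries. ESW07773 had 3140 and 2730 normalized reads in the *nifA* libraries, against 7753 and 6035 in the wild-type libraries. ESW07774 had 6505 and 8926 normalized reads in the *nifA* libraries, against 16934 and 21025 in the wild-type libraries. Of ESW06266 and ESW06267, which are both 408 bases long and lie 13342 bases apart on the reverse strand, only ESW06266 had separated groups. ESW06266 had 1033 and 1085 normalized reads in the *nifA* libraries, against 2533 and 1688 in the wild-type libraries, and ESW06267 had 2218 and 1350, against 2205 and 2467.

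The densest group was on chromosome 11, where ESW04733, ESW04734, ESW04735 and ESW04739 are 4 of 11 features in 1 stretch. These 11 features held 55.6% and 53.6% of all bean TPM in the *nifA* libraries, against 27.7% and 50.3% in the wild-type libraries. The largest level was that of ESW04729, with 252195 and 285432 TPM in the *nifA* libraries, against 206806 and 416960 TPM in the wild-type libraries, which was not ranked because 51.1% of its reads were unique. ESW04737, with 0.0445% unique reads, was left out for the same reason and had 225537 and 182626 TPM in the *nifA* libraries, against 20069 and 1446 TPM in the wild-type libraries.

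The neighbours in this stretch went opposite ways. ESW04733 (chr11:21198936-21199596) had 147156 and 140753 normalized reads in the *nifA* libraries, against 15635 and 62451 in the wild-type libraries. ESW04735 (chr11:21204186-21204434), which begins 2436 bases after the end of ESW04734 on the same strand, had 2342 and 2462 normalized reads in the *nifA* libraries, against 14227 and 4109 in the wild-type libraries. ESW04739 (chr11:21274181-21274486), on the reverse strand, had 1326 and 921 normalized reads in the *nifA* libraries, against 4693 and 3985 in the wild-type libraries. ESW04733 and ESW04734 were therefore higher and ESW04735 and ESW04739 lower in both *nifA* libraries, in normalized reads.

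**Figure D5:**
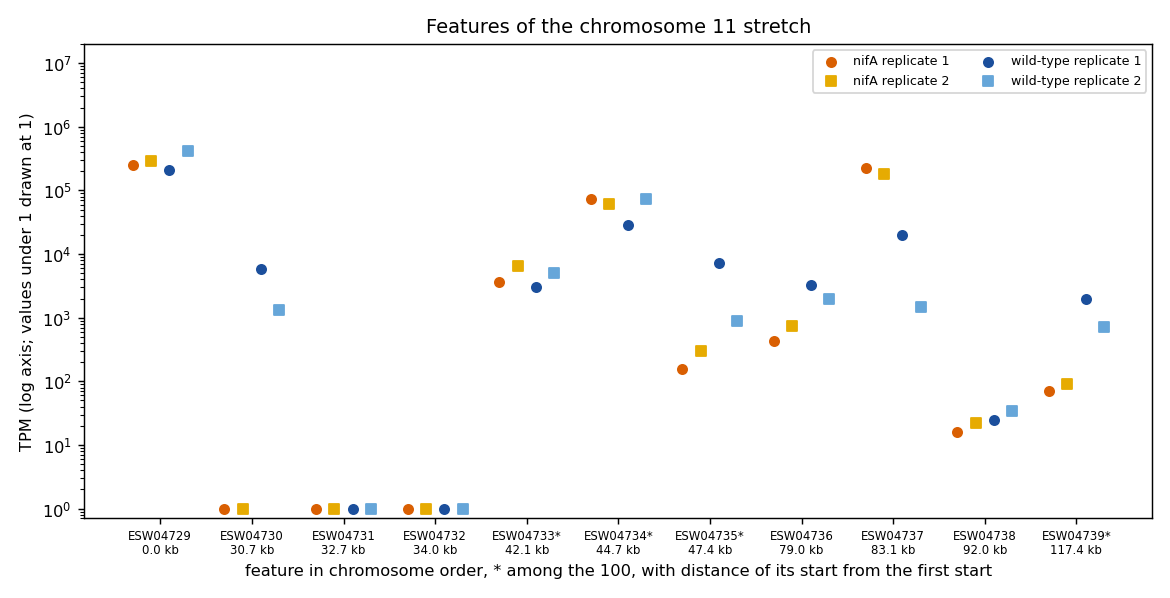
TPM (log axis, values under 1 drawn at 1) of the 11 features in the stretch of chromosome 11, in chromosome order with the distance of each start from the first start in kb, in the 2 *nifA* libraries (orange and yellow) and the 2 wild-type libraries (blue). An asterisk marks the 4 features among the 100. ESW04734 has 28244 TPM or more in all 4 libraries, while ESW04735 and ESW04739 have both *nifA* points below both wild-type points.

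Chromosome 11 held 11 of the 100 and 7.06% of the features that passed the limits, chromosome 6 held 14 and 8.26%, and chromosome 5 held 2 and 6.63%. These chromosomes lay furthest from their share, and the difference was not tested. Others lay nearer to it, such as chromosome 2 with 15 and 13.1% and chromosome 4 with 5 and 5.75%. The 100 were also short, with a median length of 660.5 bases (129 to 6552 bases), where the features that passed the limits had a median of 2878 bases. Under 300 bases were 20 of the 100 and 1.81% of those features. A length that divides by 3, as a coding sequence without introns has, was found in 71 of the 100 and in 44.9% of those features. Length entered the ranking through TPM, and ranking by normalized reads without length kept 57 of the 100.

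Of the 15 transcripts with a locus tag, 2 stand in the study's own functional lists, which were drawn from these same libraries and are no independent evidence of a direction. ESW06632 (chr10:11836120-11836689, rank 82) is listed in a dirigent-like family, whose members in other plants guide the coupling of lignin and lignan precursors. It had 10228 and 5875 normalized reads in the *nifA* libraries, against 2257 and 2849 in the wild-type libraries. ESW06454 is listed under electron transfer activity. It had 838 and 491 normalized reads in the *nifA* libraries, against 3393 and 2841 in the wild-type libraries, and both transcripts had separated groups in normalized reads. In TPM ESW06632 overlapped, with 293 and 314 in the *nifA* libraries, against 505 and 271 in the wild-type libraries.

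Others with a locus tag went either way. ESW04001 (rank 36) had 3043 and 3872 normalized reads in the *nifA* libraries, against 5652 and 9754 in the wild-type libraries. ESW04500 (rank 51) had 31056 and 32291 normalized reads in the *nifA* libraries, against 20942 and 17282 in the wild-type libraries, so the groups of these 2 were separated in opposite directions. ESW03291 (rank 57) had 15951 and 10747 normalized reads in the *nifA* libraries, against 12551 and 16377 in the wild-type libraries, and these overlapped.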

How the data were processed

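The authors trimmed single-end reads to 70 bp, aligned them in CLC Genomics Workbench against the bean and the bacterial genome with up to 2 mismatches per read, and deposited for each feature unnormalized counts of unique and of total gene reads, TPM, and RPKM. In the deposited TPM and RPKM values total gene reads are divided by feature length and library size, and in the bean files that length is the span from start to end. Plant ribosomal RNA had been depleted. Libraries were grouped by the strain in the labels.

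Unique counts over median-of-ratios size factors (features above 0 in all 4 libraries) gave normalized reads. Unique counts of all bean features were fitted with edgeR 4.0.16 in R 4.3.3 (TMM, filterByExpr, quasi-likelihood F-test) and tested on simulated data first. DESeq2 1.42.0 was an alternative. The authors' DESeq results were not used. The biological coefficient of variation was 0.67, so precision is low with 2 libraries per group.

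The transcripts and gene lists were chosen with earlier results of these data known. Named were ranks 1 to 25 and 97 to 100, the 5 highest and 5 lowest log2 fold changes, those nearest the 4-fold limit and those whose replicates differed most. Neighbouring and locus-tagged transcripts, and features on chromosome 11 outside the 100, were named after values were seen. Alternatives concerned normalization, filters, units, left-out libraries and the choice of transcripts. Other bacterial genes were not analysed here.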

Additional observations from a re-analysis of the deposited data

How the results depend on the processing

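Of the 100 transcripts, 20 (beside 9.09% of all features) passed the limits of fold change and unadjusted p in edgeR's quasi-likelihood fit. With an adjusted p under 0.05 the number was 0 in edgeR, where 34 had an unadjusted p under 0.05 (15.4% of all features), and 32 in DESeq2 (7.89%). It was 33 with no filter on low counts (10.8%) and 45 with DESeq2 at the same limits (10.2%). Leaving out 1 library gave 13 to 36, lowest without *nifA* replicate 2 (24.7% of all features) and highest without wild-type replicate 2 (7.63%). In such fits the lone library is assumed to vary like the others. Replicates of the same number showed no shared shift (correlation of their deviations 0.0535 over 12507 features). With 1 difference per group this cannot show whether the samples were paired. With the replicate block 30 passed (9.65% of all features) and the median log2 fold change was −0.53.

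The median log2 fold change of −0.53 was −2.67 as a ratio of TPM, −2.66 with a pseudocount of 1 TPM and −2.04 as a ratio of RPKM, and −0.31 to −0.80 with 1 library left out. With TPM rescaled without the features above 10000 TPM, an alternative chosen after seeing the data, it was −0.65. Over all features with at least 100 reads these 4 ratios were −2.03, −1.27, −1.42 and −0.08, in the same order. Without *nifA* replicate 2 the median was −0.43 over the 100 but −0.61 over all features tested. With any other library left out, the median was lower over the 100. The share of bean TPM of 41.5% in *nifA* and 34.2% in wild-type nodules was 46.1% and 23.0% of unique gene reads, 32.7% and 17.8% of total gene reads, and 3.28% and 10.5% of TPM without ranks 1 to 6, the last chosen after seeing the data. It was 40.5% to 42.6% in *nifA* and 31.0% to 37.3% in wild-type nodules from single libraries. The choice kept 73 of 100 with no limit on separation, 79 with a 2-fold limit, 84 and 91 with 1 wild-type library alone and, chosen after seeing the data, 57 when ranked by normalized reads without length. Of the 66 transcripts with separated groups in normalized reads, 0 changed the sign of the log2 fold change under any alternative of the fit. The 66 were picked for that separation, so leaving out 1 library could hardly turn the sign, and the 0 is no test of robustness. Ratios of TPM differ in direction as described. The causes were not tested.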
